A study of Caenorhabditis elegans with 45 samples.

Results

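The miRNA genes mir-793, mir-47, mir-8196.2, mir-1829.2, mir-1829.3, mir-4812 and mir-1829.1 lie on the Caenorhabditis elegans X chromosome within 1000000 bases of let-7. They were taken by position: every miRNA gene of the deposited table within that distance on either side, let-7 itself left out, whose reads passed the low-count filter. The rule gave 7 of the 257 miRNA genes in the table, of which 130 passed the filter with let-7 included. Another 3 miRNA genes in the same stretch, mir-5592.1, mir-5592.2 and F39B1.3, had between 0 and 1 read in every library and were not tested.

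The study sequenced small RNA of whole worms that had been cultured at 20 °C and collected as mid L4 larvae, 45 hours after they were fed. Each of 15 genotypes has 3 libraries, replicates A, B and C, which makes 45 in all. All genotypes carried maIs105, a reporter transgene on chromosome V, and the wild type (strain VT1367) carried nothing else by its label. The other 14 strains each had 1 nucleotide of let-7a changed, at every position from 9 to 22 counted from the 5′ end, and a name such as G11U gives the original base, its position and the base that replaced it.

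In 6 mutants, G11U, G12U, U13A, U14A, G15A and U16G, the genotype also names mnDp1(umnIs25) (X;V) followed by +/+, and they are called the labelled mutants here. The 8 unlabelled mutants were U9G, A10U, A17U, U18A, A19U, G20C, U21A and U22A. The levels of the neighbours were compared between each mutant and wild type and between strains with and without that name in the label. Each genotype was 1 strain, so its let-7 allele and any other difference between strains cannot be told apart.

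A miRNA is a short RNA cut from a hairpin transcript, and it lowers the output of messenger RNAs that pair with it. let-7 is known for driving the change from larval to adult fates in the worm epidermis, and strong loss of it is lethal. In worm genetics Dp names a duplicated chromosome piece, and mnDp1 is a stretch of X carried on chromosome V that is used to keep lethal mutations of the right part of X, let-7 alleles among them, alive in a strain. The labels state neither where the stretch ends on X nor whether the harvested animals carried it.

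In order along X, the first of the group was mir-793, a relative of let-7, on the plus strand at X 13857962 to 13858053 in the WBcel235 build, 885537 bases to the left of let-7. Next came mir-47, a close relative of mir-46, on the plus strand at 13921250 to 13921346 and 822244 bases to the left. Neither lay inside a protein-coding gene of the Ensembl annotation. mir-8196.2, on the minus strand at 14324355 to 14324517, was 419073 bases to the left and lay opposite to an intron of prx-1, a gene for peroxisome assembly.

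The other 4 were to the right of let-7, which spans 14743590 to 14745321 on the minus strand, and each lay within an intron of a coding gene on the same strand. mir-1829.2, on the plus strand at 14977119 to 14977178, was 231798 bases away inside F20D1.3. Both mir-1829.3, on the minus strand at 15236362 to 15236423, and mir-4812, on the minus strand at 15242774 to 15242849, sat in piki-1, a phosphoinositide kinase gene, at 491041 and 497453 bases. mir-1829.1, on the minus strand at 15588311 to 15588370, was 842990 bases away inside gas-1, which encodes a subunit of mitochondrial complex I.

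The 3 mir-1829 genes are near copies by name, and the handling of reads that match several of them is not given in the sources used here, so their separate counts are uncertain. The related mir-8196.1, also on X, had 1 read in all libraries together, in G15A replicate C.

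Levels are given as normalised CPM, which are counts per 1000000 miRNA reads with library sizes scaled by TMM. Libraries held between 1009758 and 3574420 miRNA reads. mir-47 was the most abundant of the group, with between 7533 and 70565 reads per library, and mir-793 and mir-1829.1 followed. The others were sparse: mir-8196.2 had between 20 and 109 reads, mir-1829.3 between 40 and 477, mir-1829.2 between 8 and 427, and mir-4812 between 7 and 42. At the lowest of these, 7 reads, the exact Poisson 95% interval runs from 2.81 to 14.4 reads, and such intervals cover counting error only. Whole animals were sequenced, so fewer cells that make a miRNA and less of it per cell cannot be told apart.

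U9G replicate B stood apart from all other libraries. Its correlation with the median of the others was 0.864 on the log scale, against at least 0.98 for each of the rest. Of the 7 miRNAs, 4 were over 2-fold away from the mean of U9G replicates A and C in it: mir-793 at 0.127 times, mir-47 at 0.121 times, mir-1829.3 at 3.61 times and mir-1829.2 at 13.3 times that mean. It also entered the shared estimate of the spread, so every count is given with and without it.

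**Figure D1:**
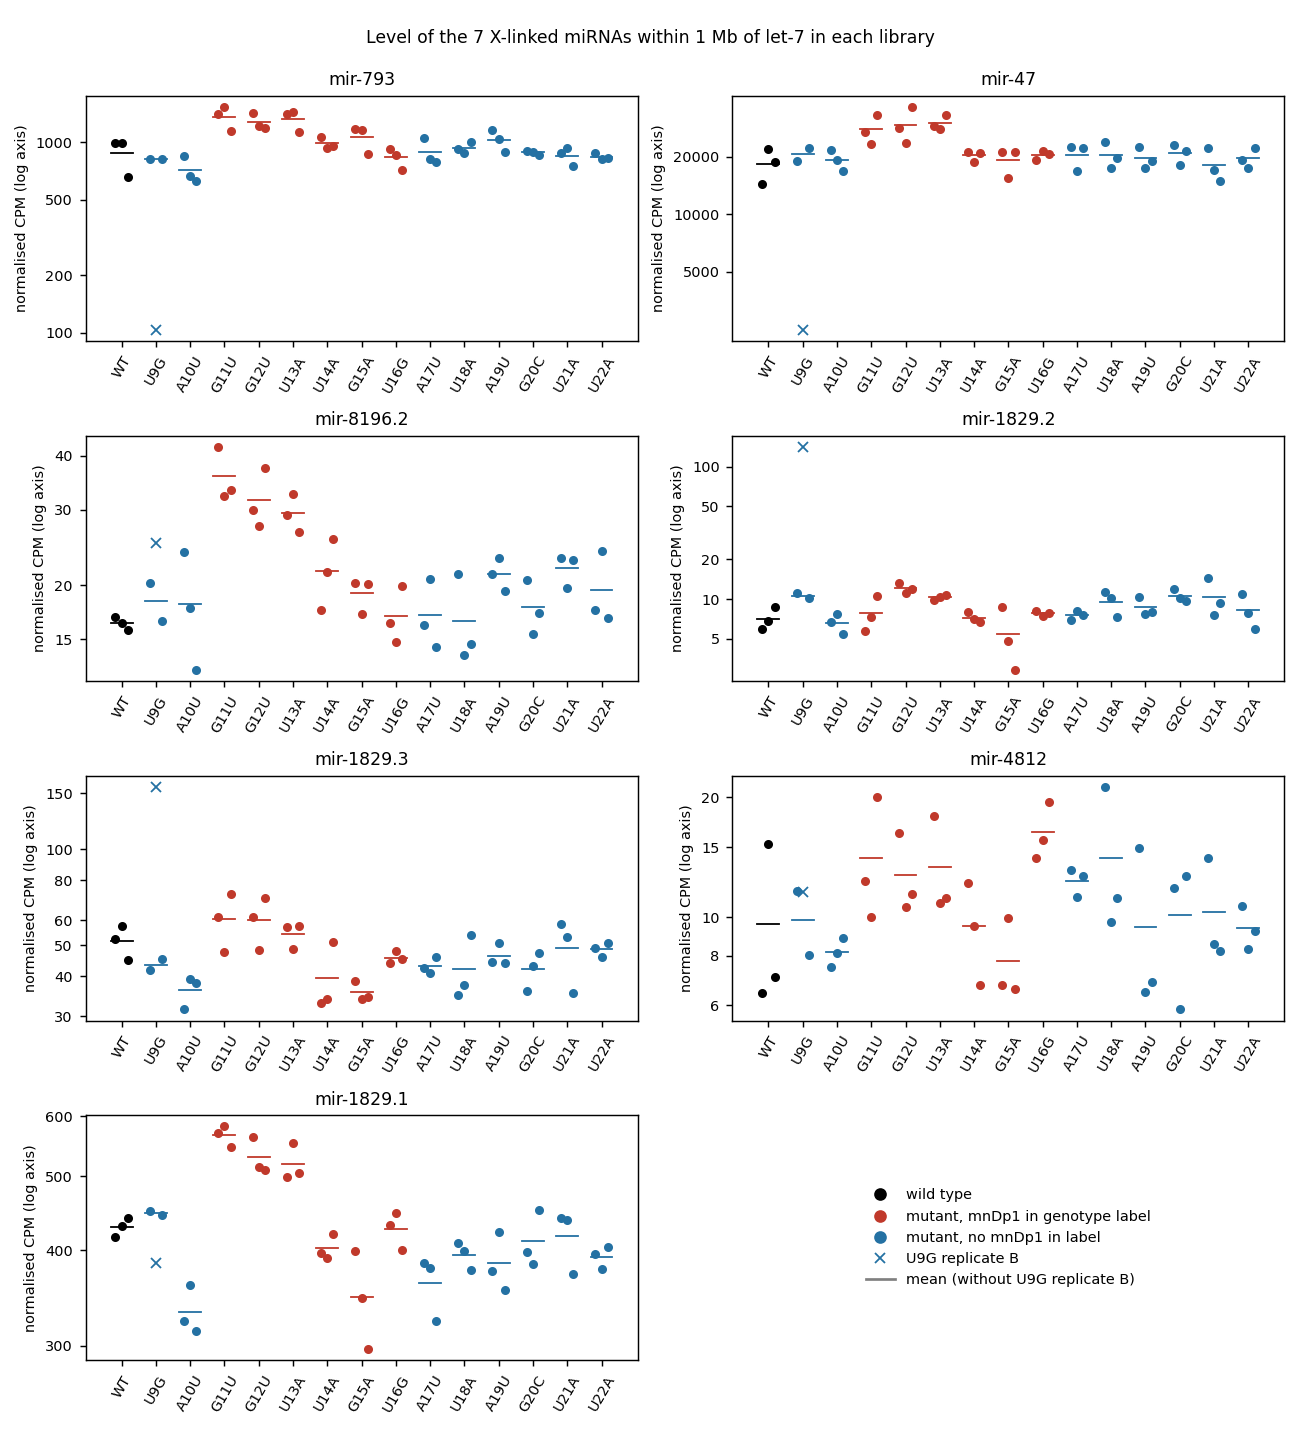
Normalised CPM of the 7 miRNAs (log axes) in each library, by genotype and in order along X, with points for libraries, a cross for U9G replicate B and bars for means without that library. Black marks wild type, red the labelled and blue the unlabelled mutants. For mir-1829.1 the 3 libraries each of G11U, G12U and U13A lie between 499 and 581 CPM, above the highest of the wild-type and unlabelled libraries, 452 CPM.

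Several of these neighbours rose in G11U, G12U and U13A against the mean of the unlabelled mutants, and some of them in G11U and G12U against wild type too. In U13A none of the 7 passed the test against wild type, with or without U9G replicate B. None of the 7 rose past the test in the other 3 labelled mutants, U14A, G15A and U16G, against either reference. The median change of the 7 miRNAs against wild type, without U9G replicate B, was 0.58 on the log2 scale in G11U, 0.52 in G12U and 0.50 in U13A, and all 7 were above 0 in each. The median over all tested miRNAs was between -0.03 and 0.03 in the same comparisons. In U14A, G15A and U16G the median of the 7 was 0.06, -0.27 and 0.07. With all 45 libraries the medians were 0.54, 0.54 and 0.55 in G11U, G12U and U13A.

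mir-8196.2 changed most. Wild-type replicates A, B and C gave 16.9, 16.4 and 15.7 CPM, a mean of 16.3 ± 0.564 (SD, n = 3). In G11U the replicates gave 41.98, 32.3 and 33.4 CPM, in G12U 30.0, 27.5 and 37.4, and in U13A 29.2, 32.6 and 26.6. Every library of these 3 mutants was above every wild-type library and above the highest unlabelled library, which was U9G replicate B at 25.1 CPM.

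Against wild type, mir-8196.2 rose in G11U by 1.13 on the log2 scale (SE 0.228; edgeR quasi-likelihood test, Benjamini-Hochberg adjusted p = 0.00237) and in G12U by 0.95 (SE 0.229; edgeR adjusted p = 0.0133) with all 45 libraries. In U13A its difference was 0.85 with an edgeR adjusted p of 0.0921. The G11U call was lost without G11U replicate A, at an edgeR adjusted p of 0.0567. The G12U call was lost without wild-type replicate A, B or C or without G12U replicate C, with edgeR adjusted p-values up to 0.368. U14A (17.5, 21.4 and 25.7 CPM) and G15A (20.2, 17.2 and 20.1 CPM) were also above the 3 wild-type libraries, as were the unlabelled A19U and U21A, with changes that did not pass the test. U16G (16.3, 14.8 and 20.0 CPM) overlapped wild type.

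mir-793, the let-7 relative, was at 988, 992 and 655 CPM in wild-type replicates A, B and C. In G11U it was at 1403, 1526 and 1142 CPM, in G12U at 1430, 1221 and 1188, and in U13A at 1400, 1441 and 1133. These libraries were all above wild type, whereas U14A, G15A, U16G and every unlabelled mutant overlapped it or lay below. With U9G replicate B in the fit no change of mir-793 against wild type passed the test. Without it mir-793 rose in G11U by 0.66 (SE 0.165; edgeR adjusted p = 0.0148), and the values for G12U and U13A were 0.52 and 0.54 with edgeR adjusted p-values of 0.0908 and 0.0703.

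mir-47 was at 14439, 21902 and 18871 CPM in wild type. G11U gave 27008, 23269 and 33260 CPM, G12U gave 28170, 23651 and 36400, and U13A gave 28908, 27867 and 33175. Here too the 3 mutants lay above the wild-type libraries without overlap. In the fit without U9G replicate B mir-47 rose in G11U by 0.63 (SE 0.174; edgeR adjusted p = 0.0245) and in G12U by 0.67 (SE 0.174; edgeR adjusted p = 0.0179), and the U13A value was 0.66 with an edgeR adjusted p of 0.0703. None of the 3 passed with all 45 libraries, where the standard error was 0.353.

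mir-1829.1 had the tightest replicates, at 417, 431 and 440 CPM in wild type. It was at 571, 581 and 547 CPM in G11U, at 564, 515 and 510 in G12U and at 499, 554 and 505 in U13A. Wild type and the unlabelled mutants stayed at or below 452 CPM, and the other labelled mutants at or below 448. Against wild type it rose in G11U by 0.43 without U9G replicate B (SE 0.112; edgeR adjusted p = 0.0166). It fell by 0.41 in A10U in the same fit (SE 0.112; edgeR adjusted p = 0.0239), where the libraries gave 323, 360 and 313 CPM. G15A, A17U, U18A and U22A also lay wholly below wild type, with changes that did not pass. Of all tested miRNAs, 9.23% in G15A, 5.38% in A17U, 3.08% in U18A and 4.62% in U22A lay wholly below it.

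The 3 sparse miRNAs to the right of let-7 behaved less alike. mir-1829.3 was at 52.5, 57.6 and 44.8 CPM in wild type and overlapped it in G11U, G12U and U13A. mir-4812 ranged from 6.44 to 15.3 CPM over the wild-type libraries alone, and its highest mean was in U16G, at 16.4 ± 2.78 CPM (SD, n = 3). mir-1829.2 was at 5.95, 6.78 and 8.65 CPM in wild type, at 13.2, 11.1 and 12.0 in G12U, at 9.87, 10.4 and 10.7 in U13A, and at 5.78, 7.28 and 10.5 in G11U, where it overlapped. The G12U and U13A libraries of mir-1829.2 were all above wild type. None of these 3 miRNAs passed the test against wild type in a labelled mutant.

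mir-1829.2 did pass in U9G with all 45 libraries, by 2.95 on the log2 scale (edgeR adjusted p = 0.000275). Replicate B held 427 reads of it, or 141 CPM, against 11.0 and 10.2 CPM in replicates A and C. Without replicate B the value was 0.58 with an edgeR adjusted p of 0.988, so the call rests on that library. In the same comparison with all 45 libraries the summed mir-1829 copies differed by 0.16 (edgeR adjusted p = 0.505).

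Every library was above every wild-type library for 4 of the 7 miRNAs in G11U (7.69% of all tested miRNAs), for 5 in G12U (7.69%) and for 5 in U13A (12.3%). The same held for 1 of the 7 in U14A (6.15%), 1 in G15A (9.23%) and 0 in U16G (6.92%). Among the unlabelled mutants it held for 2 in U9G without replicate B (8.46%) and 1 with it (5.38%). It also held for 1 each in A19U (8.46%), G20C (6.15%) and U21A (4.62%). In A10U (3.08%), A17U (1.54%), U18A (6.92%) and U22A (5.38%) it held for 0.

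Counted over the 14 mutants, 3 of the 98 changes against wild type passed the test with all 45 libraries, where 1.43% of all miRNA changes were called. After U9G replicate B was omitted, 7 of 98 passed, against 1.65% of all. By mutant in that second fit, the calls were 4 of the 7 miRNAs in G11U, where 4.48% of 134 tested miRNAs were called, 2 in G12U (2.99%) and 1 in A10U (5.22%). In U13A none of the 7 and no other miRNA was called (0.0%), and 11 of 134 had an unadjusted p under 0.05, 3 of them neighbours of let-7. With all 45 libraries the calls were 1 each in U9G (9.23%), G11U (1.54%) and G12U (1.54%).

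All mutants were compared with the same 3 wild-type libraries, so these comparisons are not independent. Of the 7 calls made without U9G replicate B, that of mir-8196.2 in G11U held with any 1 further library left out, and the other 6 did not. In G11U the call of mir-793 was lost without wild-type replicate C or G11U replicate A or B, that of mir-1829.1 without wild-type replicate A or B or G11U replicate A or B, and that of mir-47 without replicate A or C of either genotype, with edgeR adjusted p-values up to 0.15, 0.122 and 0.23. In G12U the call of mir-47 was lost without wild-type replicate A or C or G12U replicate C, and that of mir-8196.2 without wild-type replicate B or C or G12U replicate C, with edgeR adjusted p-values up to 0.33 and 0.159. The call of mir-1829.1 in A10U was lost without any 1 of the wild-type libraries, A10U replicate A or C, or U13A replicate C, with edgeR adjusted p-values up to 0.193. Nothing in the labels says that replicates were separate cultures, so the p-values measure the spread between these samples.

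**Figure D2:**
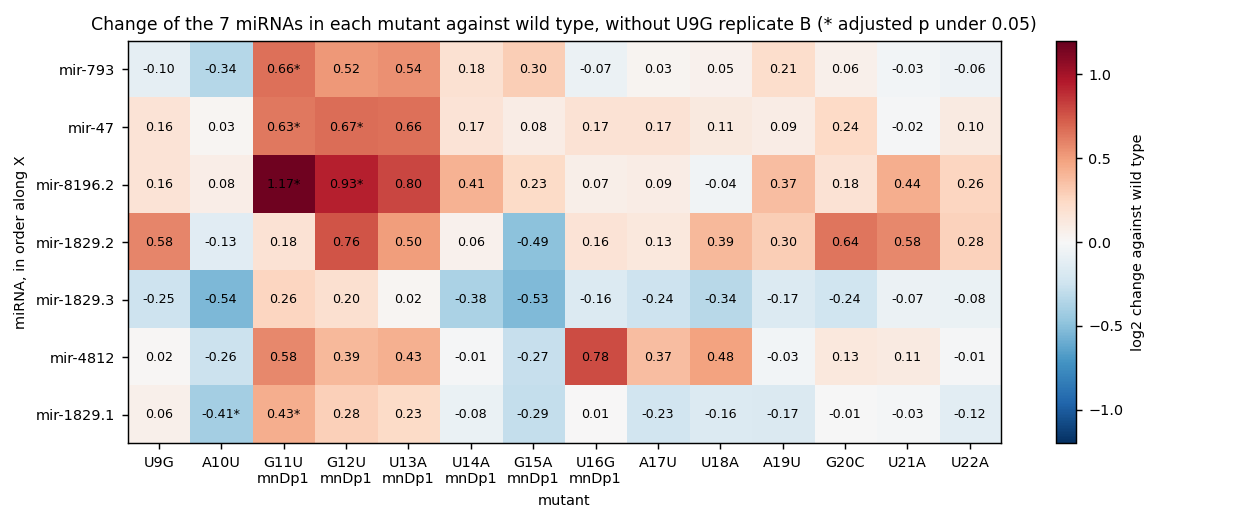
log2 change of the 7 miRNAs against wild type in each mutant, in the fit without U9G replicate B. Rows follow the order along X, blue is lower and red higher than wild type, and a star marks an edgeR adjusted p under 0.05. The columns of G11U, G12U and U13A are above 0 in all 7 rows, with a highest value of 1.17 for mir-8196.2 in G11U.

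A second reference was the mean of the 8 unlabelled mutants, which holds 23 libraries without U9G replicate B and so a smaller error. That error comes from the spread between libraries of a strain. It leaves out differences between strains, so the p-values against this reference do not cover those. Without U9G replicate B, 14 of 42 changes of the 7 miRNAs in the 6 labelled mutants passed, where 4.6% of all miRNA changes were called. With all 45 libraries 6 of 42 passed, against 1.92% of all. Those 6 were mir-8196.2 and mir-1829.1 in each of G11U, G12U and U13A, where 2.31% of miRNAs were called in each, and all 6 were rises.

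In G11U, 5 of the 7 miRNAs rose against the unlabelled mean without U9G replicate B, where 5.97% of tested miRNAs were called. The largest was mir-8196.2 at 0.98 (SE 0.15; edgeR adjusted p = 9.2e-06), followed by mir-793 at 0.68 (SE 0.116; edgeR adjusted p = 4.71e-05). mir-1829.1 rose by 0.56, mir-47 by 0.52 and mir-1829.3 by 0.50, the last with an edgeR adjusted p of 0.0163. mir-4812 was at 0.48 and mir-1829.2 at -0.17, and neither passed.

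In G12U, 4 rose (4.48% called over all miRNAs): mir-8196.2 by 0.74, mir-47 by 0.56, mir-793 by 0.54 and mir-1829.1 by 0.41, with edgeR adjusted p-values from 0.000869 to 0.00207. In U13A the same 4 rose (3.73% called over all): mir-8196.2 by 0.61, mir-793 by 0.57, mir-47 by 0.55 and mir-1829.1 by 0.36, with edgeR adjusted p-values from 0.00201 to 0.0118. The corresponding folds lay between 1.28 and 1.67.

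U14A and U16G had no call among the 7 miRNAs (0.746% of all called in each). The 95% interval for mir-1829.1 ran from -0.11 to 0.22 in U14A and from -0.02 to 0.30 in U16G. That for mir-47 ran from -0.20 to 0.31 in both. The estimated rises given above for G11U, G12U and U13A were higher, and some of their own intervals overlapped these. For mir-1829.1 the G11U interval, from 0.41 to 0.72, lay above both. That of G12U, from 0.26 to 0.57, lay above U14A only, and that of U13A, from 0.20, overlapped both. For mir-47 the intervals of G11U, from 0.28, and U13A, from 0.306, overlapped both. The mir-47 interval of G12U began at 0.3118, just above the upper ends in U14A and U16G, 0.3081 and 0.3116. With all 45 libraries the mir-47 interval ran from -0.41 to 0.61 in both U14A and U16G. The mir-47 values in that fit were 0.55 in G11U, which lay within it, and 0.63 in G12U and 0.66 in U13A. None of these passed. In G15A without U9G replicate B, 11.9% of all tested miRNAs were called. There mir-1829.2 fell by 0.83 (SE 0.24, edgeR adjusted p = 0.0238) and none of the 7 rose. The G15A libraries of mir-1829.2 held 8.68, 4.79 and 2.93 CPM, or 9, 12 and 8 reads. The G15A call was lost without G15A replicate B or C.

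G11U, G12U and U13A were set against the same unlabelled libraries, and their calls depended to different degrees on the libraries fitted. In U13A with any 1 of the 45 libraries left out, mir-1829.1 passed in 4 of 45 fits and mir-8196.2 in 3 of 45, and the fit without U9G replicate B was among those. Leaving out any library also loosened the filter, to between 132 and 134 tested miRNAs. With U9G replicate B left out as well, they passed in U13A in 43 and 42 of 44 fits, failing without U13A replicate B, and mir-8196.2 also without U13A replicate A. In G12U with U9G replicate B kept, mir-1829.1 lost its call without G12U replicate A or C, with edgeR adjusted p-values up to 0.118, and mir-8196.2 without G12U replicate C, at 0.321. Without U9G replicate B, mir-47 lost its call without replicate C of the mutant itself in G11U, G12U or U13A, with edgeR adjusted p-values of 0.0669, 0.283 and 0.0949. mir-8196.2 lost its call in G12U without replicate C, at 0.111, and mir-793 in U13A without replicate B, at 0.0582. mir-1829.3 in G11U lost its call without G11U replicate A or C or U13A replicate C, with edgeR adjusted p-values up to 0.164.

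The 3 mir-1829 copies were also taken as 1 summed count, which does not depend on how reads counted once were split among them but would still miss discarded reads or hold reads counted at several copies. The sum, again without U9G replicate B, rose against the unlabelled mean by 0.48 in G11U (SE 0.0782), 0.39 in G12U (SE 0.0789) and 0.31 in U13A (SE 0.0795), with edgeR adjusted p-values up to 0.0113. The values for U14A, G15A and U16G were 0.04, -0.23 and 0.10, and none passed. Over all libraries mir-1829.1 gave 40154 reads of this sum, mir-1829.3 4796 and mir-1829.2 1218.

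The labelled mutants also differed among themselves. In a joint test of the 6 labelled strains without U9G replicate B, 5 of the 7 miRNAs differed among them, where 7.46% of tested miRNAs were called: mir-1829.1 (edgeR adjusted p = 0.000167), mir-8196.2 (0.00226), and mir-793, mir-47 and mir-1829.3 (0.0162 each). With all 45 libraries mir-1829.1 and mir-8196.2 differed (3.08% called). Among the 8 unlabelled strains none of the 7 differed without U9G replicate B (6.72% called), and 1 had an unadjusted p under 0.05. With that library in, mir-1829.2 differed (15.4% called).

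Over all 15 genotypes, 3 of the 7 differed with all 45 libraries (15.4% of tested miRNAs called) and 5 without U9G replicate B (15.7%). The 3 were mir-1829.1, mir-1829.2 and mir-8196.2, and in the second fit mir-793, mir-47 and mir-1829.3 passed and mir-1829.2 did not.

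A comparison by label alone, with counts summed per strain so that the strain was the replicate, called none of the 7 miRNAs and none of the 137 tested (0.0%), with or without U9G replicate B. With all libraries 15 of 137 had an unadjusted p under 0.05 in edgeR, 4 of them neighbours of let-7. DESeq2 called none of the 7 either. Without U9G replicate B the difference between labelled and unlabelled strains was 0.47 for mir-8196.2, 0.38 for mir-793 and 0.30 for mir-47, each with an edgeR adjusted p of 0.117.

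An exact two-sided permutation test covered the 3003 ways to assign 6 of 14 strains. Without U9G replicate B this permutation test gave p = 0.00766 for mir-793, 0.0163 for mir-47 and 0.021 for mir-8196.2. With all libraries the same permutation test gave p = 0.011, 0.0123 and 0.0363. No p adjusted over the 137 miRNAs was under 0.05 either way. Unadjusted, 16 of 137 miRNAs had a permutation p under 0.05 without U9G replicate B and 14 with it. When the 42 mutant libraries were treated as the samples, 3 of the 7 passed with U9G replicate B (4.62% called) and 4 without (10.4%), but that fit takes libraries of 1 strain as independent of the strain.

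Along the chromosome, the rises in G11U, G12U and U13A were seen among the miRNAs near let-7 and not over X as a whole. Without U9G replicate B, the 3 neighbours to the left of let-7 had a median change against the unlabelled mean of 0.68 in G11U, 0.56 in G12U and 0.57 in U13A, and the 4 to the right 0.49, 0.41 and 0.30. The 39 tested X miRNAs farther to the left had medians of -0.01, -0.09 and -0.08, and the 83 on the autosomes -0.02, -0.02 and -0.05. These are descriptions of lists with no test between them.

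Immediately outside the window on the left, mir-54, mir-55 and mir-56, a cluster that begins 1598496 bases from let-7, did not pass in any of the 3 mutants, with values from -0.58 to 0.03. Outside it on the right only 4 miRNAs were tested. mir-63, 2853444 bases to the right of let-7, rose by 0.39 in G11U (edgeR adjusted p = 0.0238) and by 0.49 in G12U (edgeR adjusted p = 0.00207), and was at 0.28 in U13A without passing. mir-84, a let-7 relative 1277083 bases to the right, was at 0.27, 0.28 and 0.11 and did not pass. mir-2212 and mir-1819, which lie together 1462508 and 1462634 bases to the right, were between -0.55 and -0.29 in the 3 mutants, also without passing.

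Beside let-7 itself and mir-63, the only further miRNA called against the unlabelled mean in G11U, G12U or U13A in that fit was mir-357 on chromosome V, lower by 0.57 in G11U. In G15A 15 miRNAs other than the 7 were called. In U14A and U16G it was mir-788, 6258219 bases to the left of let-7 on X, which rose by 0.85 and 0.98. mir-788 was also among those called in G15A, where it rose by 0.68 (edgeR adjusted p = 0.0305).

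**Figure D3:**
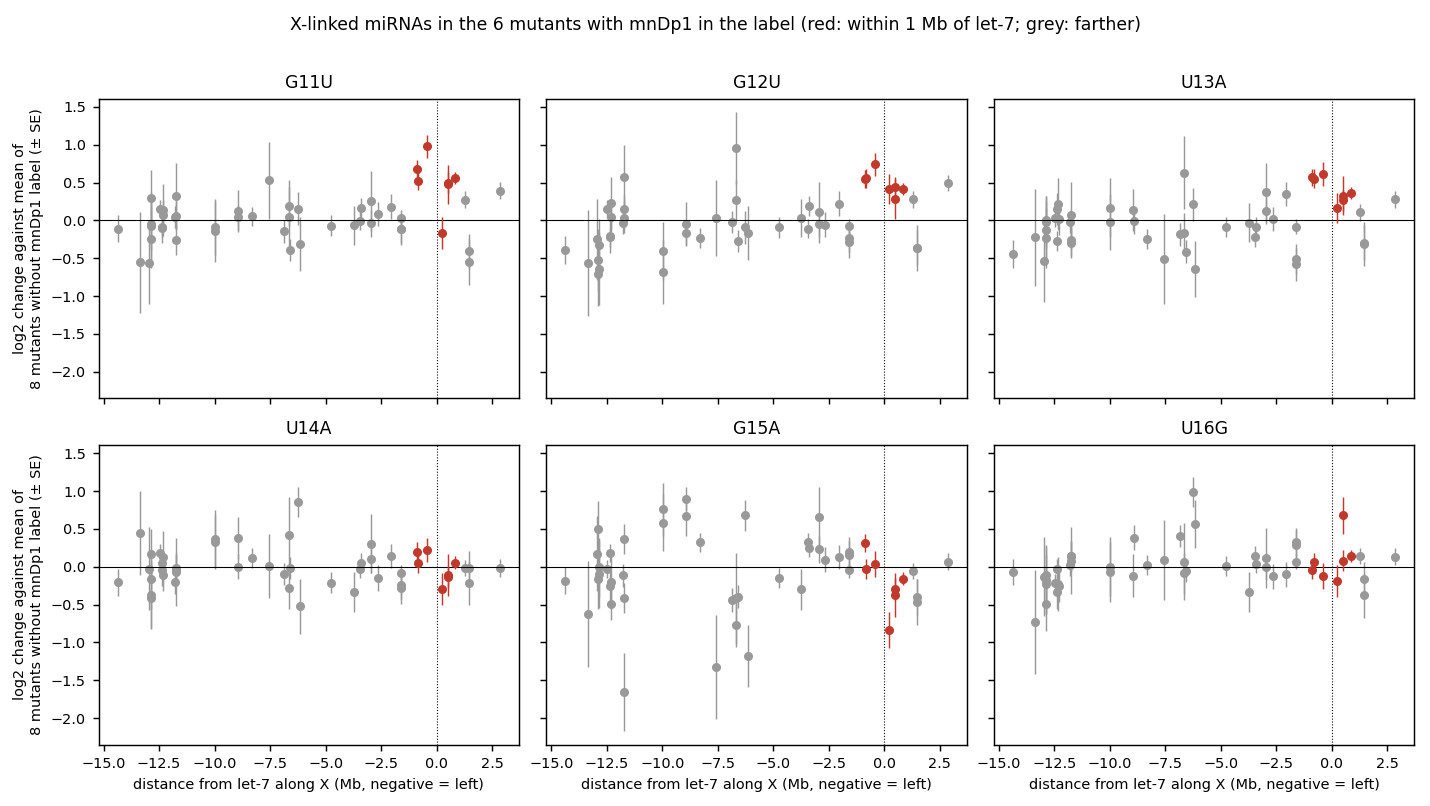
log2 change of each tested X-linked miRNA against the mean of the 8 unlabelled mutants (± SE, fit without U9G replicate B) by distance from let-7 in Mb, with 1 panel per labelled mutant. Red points are the 7 miRNAs within 1000000 bases and grey points those farther away. In G12U and U13A all 7 red points are above 0 and in G11U 6 of 7, while in U14A, G15A and U16G they straddle 0.

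The library table also counts reads of let-7 in its wild-type form, which differs from the form a mutant encodes at the changed base. Per 1000000 miRNA reads they ranged from 7351 to 7662 in G11U, from 7317 to 8624 in G12U and from 6436 to 8061 in U13A, against 21518 to 32794 in wild type. U14A, G15A and U16G held between 11.7 and 68.8. Among the unlabelled mutants, U21A held between 1503 and 2397 and U22A between 3767 and 5234, and the rest between 5.99 and 105.

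The median change of the 7 neighbours against wild type in U21A and U22A was -0.02 and -0.01. How reads were assigned to a let-7 form is not given in the sources used here. With a change near the 3′ end of the miRNA, trimmed or extended ends could be read as either form, and this was not tested.

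**Figure D4:**
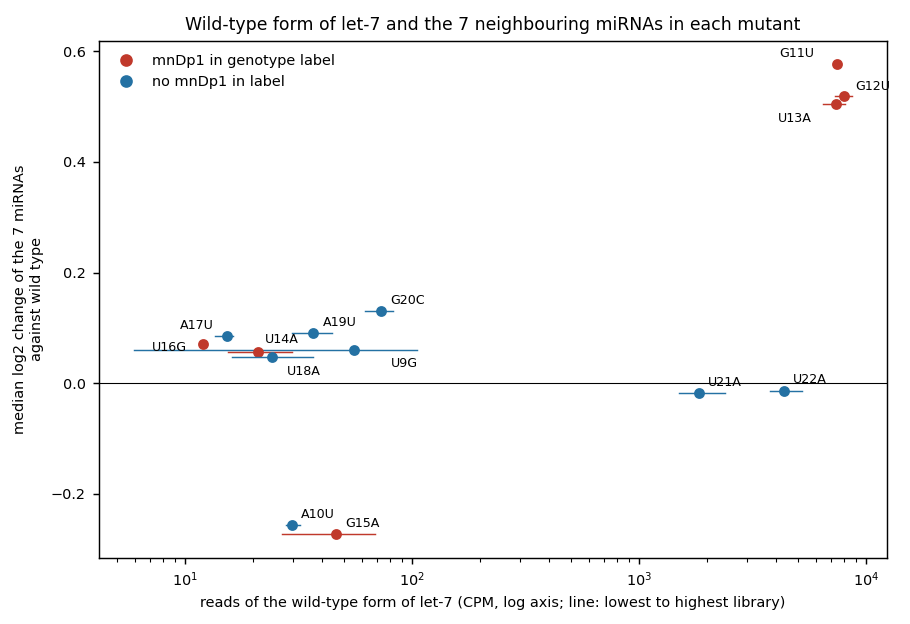
Mean reads of the wild-type form of let-7 per 1000000 miRNA reads (CPM, log axis, lines from the lowest to the highest library) and median log2 change of the 7 neighbouring miRNAs against wild type, by mutant, without U9G replicate B. Red marks labelled and blue unlabelled mutants. G11U, G12U and U13A stand at 7331 to 7994 CPM and medians of 0.50 to 0.58, and U21A and U22A have 1840 and 4343 CPM at medians of -0.02 and -0.01.

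The order of genotypes differed between the miRNAs below the top. Ranked by geometric mean without U9G replicate B, G11U, G12U and U13A took the first 3 places for mir-793, mir-47, mir-8196.2, mir-1829.3 and mir-1829.1, in an order that changed and with libraries that overlapped among the 3. For mir-4812 U16G was first and for mir-1829.2 G12U. The lowest genotype was A10U for mir-793 and mir-1829.1, G15A for mir-1829.2, mir-1829.3 and mir-4812, U18A for mir-8196.2 and U21A for mir-47. The ratio of the highest to the lowest genotype mean ran from 1.67 for mir-1829.3 to 2.28 for mir-1829.2.

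Low levels were also seen in A10U and G15A. In A10U mir-1829.3 was at 31.5, 39.3 and 38.2 CPM and in G15A at 38.6, 33.9 and 34.4, both below all 3 wild-type libraries. Of all tested miRNAs, 3.85% in A10U and 9.23% in G15A lay wholly below wild type. The change of mir-1829.3 against wild type was -0.54 in A10U and -0.53 in G15A without U9G replicate B. The edgeR adjusted p-values were 0.114 and 0.117. The median over the 4 miRNAs to the right was -0.33 in A10U and -0.39 in G15A, against 0.03 and 0.23 over the 3 to the left, and the difference between the sides was not tested. mir-793, on the left, was at -0.34 in A10U (edgeR adjusted p = 0.333). Of the 8 changes on the right in these 2 strains, only that of mir-1829.1 in A10U passed.

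Among the 7, profiles over the 15 genotype means were most alike for mir-1829.3 and mir-1829.1, with a Spearman rho of 0.764, and least alike for mir-793 with mir-1829.2 and for mir-8196.2 with mir-4812, at 0.104 each. The points share wild type, the scaling and, for the mir-1829 copies, possibly reads. Outside the group, the miRNAs with the profile most like the mean of the 7 were mir-65 on chromosome III (rho 0.686), mir-84 on X (0.668), mir-64 on III (0.657), mir-4920 on IV (0.6) and mir-34 on X (0.557). By single miRNA the closest were mir-792 for mir-793 (0.75), mir-1829.1 for mir-47 (0.625), mir-248 for mir-8196.2 (0.829), mir-250 for mir-1829.2 (0.643), mir-65 for mir-1829.3 (0.821) and mir-84 for mir-4812 (0.682).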

How the data were processed

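The authors deposited raw read counts per miRNA gene for 45 libraries, and a second table with counts of all, mapped, miRNA and let-7 reads per library. Per the labels' protocols, the NEBNext kit for small RNA was used. The submitters' processing notes name cutadapt 1.9, Bowtie2 2.3.4.3, Subread 1.6.2 and featureCounts. The genome build, strand setting and treatment of reads that match several genes are not given in the sources used here. No molecular identifiers are named, and reads stand for molecules only as far as amplification was even. Gene places come from the Ensembl annotation of WBcel235, matched by gene ID for all 257 miRNA genes. No miRNA sequence was used here, so seeds were not compared.

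Counts were tested with edgeR 4.0.16 (R 4.3.3) by its quasi-likelihood test, with 1 coefficient per genotype, TMM scaling, filterByExpr by genotype and Benjamini-Hochberg adjustment over all tested miRNAs in each comparison, at a threshold of 0.05. The let-7 row was replaced by the count of the form the genotype encodes. The 2 references were wild type and the mean of the 8 unlabelled mutants. The comparison by label used counts summed per strain. Fits were tested on simulated data. The alternatives were other scalings, filters, DESeq2 1.42.0, a replicate block and each library or strain left out. The row of U9G replicate C in the library table repeats the mapped and miRNA reads of replicate A, so summed counts were used. No library pair held identical counts.

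The letters A, B and C recur in all genotypes, and no label says that a letter marks a shared batch. Deviations from the genotype means correlated over 0.1 in 216 of 315 same-letter pairs, and in 34 of the 42 that joined a mutant and wild type. The median correlation was 0.21 for same-letter pairs and -0.11 for other-letter pairs, so libraries of the same letter were more alike. The main fits did not pair the samples by letter, and the replicate block was an alternative. The text names the 7 miRNAs, let-7, miRNAs that share a member's number, the miRNAs with the most similar profiles, and, chosen after their values were seen, the nearest X-linked miRNAs outside the window and those called in the labelled mutants. The 7 miRNAs, the lists and the comparisons were chosen with earlier results of these data known. The fit without U9G replicate B was planned as an alternative, and the comparison of labelled mutants with unlabelled ones as a result of its own was added after seeing the data.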

Additional observations from a re-analysis of the deposited data

Results flagged for a closer look

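U9G stood apart from the other 7 unlabelled strains for 3 of the 7 miRNAs when counts were summed per strain, with its log2 CPM at 13.7 for mir-47, below the others, and at 6.1 for mir-1829.2 and 6.575 for mir-1829.3, above them. Of 14 groups of strains examined this way, chance flags about 1 in 20. The summed count of U9G includes replicate B, and its part in these values was measured directly: mir-47 was at 0.121 times, mir-1829.3 at 3.61 times and mir-1829.2 at 13.3 times the mean of replicates A and C in it.

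The labelled mutants differed among themselves in the joint edgeR test. With all 45 libraries the adjusted p was 0.00129 for mir-1829.1 and 0.00317 for mir-8196.2. Without U9G replicate B it was 0.000167 for mir-1829.1, 0.00226 for mir-8196.2, and 0.0162 for each of mir-793, mir-47 and mir-1829.3.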

How the results depend on the processing

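Leaving out U9G replicate B alone moved the counts of calls from 3 to 7 against wild type, from 3 to 5 across the 15 genotypes, from 6 to 14 against the unlabelled mean and from 2 to 5 among the labelled mutants. Against wild type the count of 3 became 0 with only the 6 libraries of each pair of genotypes, 9 against the mean of the other 13 mutants, 4 with DESeq2 size factors or total counts, 7 and 11 with these when U9G replicate B was left out, and 2 to 11 with 1 library left out, alone or with U9G replicate B. Across the 15 genotypes the count was 3, 6 with DESeq2 size factors without U9G replicate B, and 3 to 6 with libraries left out. Against the unlabelled mean it was 6, 15 with DESeq2 size factors or total counts without U9G replicate B, and 2 to 16 with libraries left out. Among the labelled mutants it was 2, 1 with no filter, 6 with DESeq2 size factors without U9G replicate B, and 2 to 6 with libraries left out. By label it was 0, 3 with the 42 libraries as samples, and 0 to 1 with strains left out. The replicate block left 3, 3, 6 and 2 calls in the first 4 counts with all libraries, and 11, 6, 16 and 6 without U9G replicate B. In the fit of 42 libraries it left 3, and without U9G replicate B that fit called 4. A filter of at least 10 counts in every library kept 98 miRNAs and 5 of the 7.

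mir-1829.3 by label, -0.03, turned to 0.14 without U9G replicate B and to 0.018 with total counts. It lay between -0.10 and 0.14 with 1 strain or U9G replicate B left out, and the upper end was the fit without U9G replicate B. No other difference changed sign beyond its test. Total counts in place of TMM moved the median of all miRNAs in G11U against wild type from -0.03 to 0.11, and that of the 7 from 0.54 to 0.67.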
